A study of Mus musculus with 8 samples.

Results

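The mitochondrial genome was described in fixed 50-bp windows counted from its first base in mm10. These made 326 windows over 16299 bases, of 54510762 such windows in the main mm10 chromosomes and chrM together. All windows of chrM were members, whatever they measured. Fragments came from single-cell ATAC-seq of spleen nuclei of C57BL/6J mice, with tissue fixed in formalin and embedded in paraffin (FFPE). In this assay the Tn5 transposase cuts accessible DNA and adds adapters, and split-pool barcoding marks the nucleus of origin. In the +RV condition the tagmented nuclei went through reverse crosslinking with SDS and proteinase K, which breaks the formaldehyde bonds between DNA and protein, and in the −RV condition they did not. Strain, genotype, tissue and fixation were shared by all samples. By the study's methods, tagmentation came first and reverse crosslinking after the last barcode ligation.

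The labels gave 2 single-cell libraries per condition, but the fragments were deposited as 1 pooled set per condition. Each condition was therefore 1 sample, no test across replicates was possible, and intervals are exact 95% intervals that cover counting error only. The +RV set held 1015638 chrM fragments from 18460 of 18620 barcodes, which was 6.89% of its fragments. The −RV set held 132255 chrM fragments from 2393 of 2406 barcodes, or 7.65%. A barcode had a median of 40 chrM fragments in +RV and 41 in −RV, and 2 barcodes occurred in both sets. The tissue label was checked on promoters: 4 B cell genes held 286 and 4 T cell genes 144 fragments in +RV, against 19 over 3 liver genes and 28 over 3 neuron genes. In −RV the same lists held 30 and 15 fragments, against 3 and 1. None of the 4 bulk peak lists of the series held a peak on chrM. These lists hold called peaks only, so they do not show whether bulk reads lay on chrM.

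Mitochondrial DNA is a small circle present in many copies per cell, packed by the protein TFAM and not by histones. It encodes proteins of the respiratory chain, ribosomal RNAs and transfer RNAs, with almost no sequence between the genes. The control region holds the promoters and the origin of the heavy strand, and the light-strand origin lies within a cluster of tRNA genes. Pieces of mitochondrial DNA have also been copied into nuclear chromosomes. Reads from a stretch that is identical in both places cannot be assigned by sequence alone.

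The sequences that carry the results are shown first, from the GRCm38.p6 genome, 5′ to 3′. The first set gives the 5 windows whose share of chrM midpoints was lowest in +RV relative to −RV. Capitals mark runs of at least 8 bases made of A and T only.

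mt-Nd5, chrM:11901-11950: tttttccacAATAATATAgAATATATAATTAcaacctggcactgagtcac
mt-Rnr2, chrM:1101-1150: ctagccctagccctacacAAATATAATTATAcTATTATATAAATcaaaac
mt-Rnr2, chrM:2601-2650: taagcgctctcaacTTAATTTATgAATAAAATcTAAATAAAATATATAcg
mt-Rnr1, chrM:351-400: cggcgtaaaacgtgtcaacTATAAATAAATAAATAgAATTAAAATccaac
mt-Rnr2, chrM:2151-2200: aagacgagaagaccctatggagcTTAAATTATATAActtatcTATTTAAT

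Of the windows with the largest share of +RV midpoints, 4 are given for contrast with the same marking. They contain no such run. They were chosen by share and not by ratio, so the lists are not opposite ends of the same ranking. Of the 322 full windows away from the map ends, 97 lacked such a run too, counted with 25 bp on each side.

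mt-Nd4, chrM:11151-11200: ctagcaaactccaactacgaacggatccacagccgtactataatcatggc
mt-Nd5, chrM:12801-12850: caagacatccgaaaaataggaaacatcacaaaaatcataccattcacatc
mt-Nd4, chrM:11201-11250: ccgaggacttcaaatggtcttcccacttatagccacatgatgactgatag
mt-Cytb, chrM:14551-14600: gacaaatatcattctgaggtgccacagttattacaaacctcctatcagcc

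The second set shows both places inside the longest close nuclear copy where its fragments lay. Each chrM sequence is followed by the nuclear copy on chromosome 1, read on its minus strand, and capitals mark the base or the run of A that differs.

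chrM:9446-9476, mt-Tg and mt-Nd3: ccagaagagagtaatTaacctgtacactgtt
chr1:24613102-24613132: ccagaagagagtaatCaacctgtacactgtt
chrM:9809-9839, mt-Tr: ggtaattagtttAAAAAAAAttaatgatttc
chr1:24612738-24612769: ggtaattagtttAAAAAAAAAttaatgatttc

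The third set shows the 5 sites with most +RV fragment ends. Capitals mark the 9 bases between a fragment start and a fragment end that shared the site.

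mt-Nd4, chrM:11129-11157: cacatcatcaCTCCTATTCtgcctagcaa
mt-Tl1, chrM:2733-2761: caaatcctctCCCTAATAGtgttctttat
mt-Nd2, chrM:4025-4053: ctagcaattaTCCCCATACtaatcaacaa
mt-Nd1, chrM:3473-3501: cttcctaggaCCCCTATACtatatcaatt
mt-Rnr2, chrM:1955-1983: agcattacaaGTATTAGAGgcactgcctg

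Fragments were counted in the window that held their midpoint. The windows ranged widely, with a coefficient of variation over the 325 full windows of 0.83 in +RV and 0.73 in −RV, where counting alone gives 0.018 and 0.050. The highest +RV window was chrM:11151-11200 in mt-Nd4, a subunit of respiratory complex I, with 9349 midpoints in +RV and 933 in −RV. It was followed by chrM:12801-12850 in mt-Nd5, another complex I subunit, with 8424 and 761 midpoints. The third was the neighbour of the first, chrM:11201-11250, with 8331 and 873. These neighbours lie just past the end of the long gap described next. The window chrM:14551-14600 of mt-Cytb, the mitochondrial subunit of complex III, had 8045 and 854. These 4 windows held a larger share of the +RV than of the −RV midpoints, by 1.23- to 1.44-fold.

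At the other end, 78 of the 322 full windows away from the map ends held no midpoint in either set. A count of 0 allows a share of up to 0.000295% of the +RV and 0.00227% of the −RV chrM fragments. These empty windows formed a broad gap between mt-Co1 and mt-Nd4, which took up nearly the same place in both sets.

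**Figure D1:**
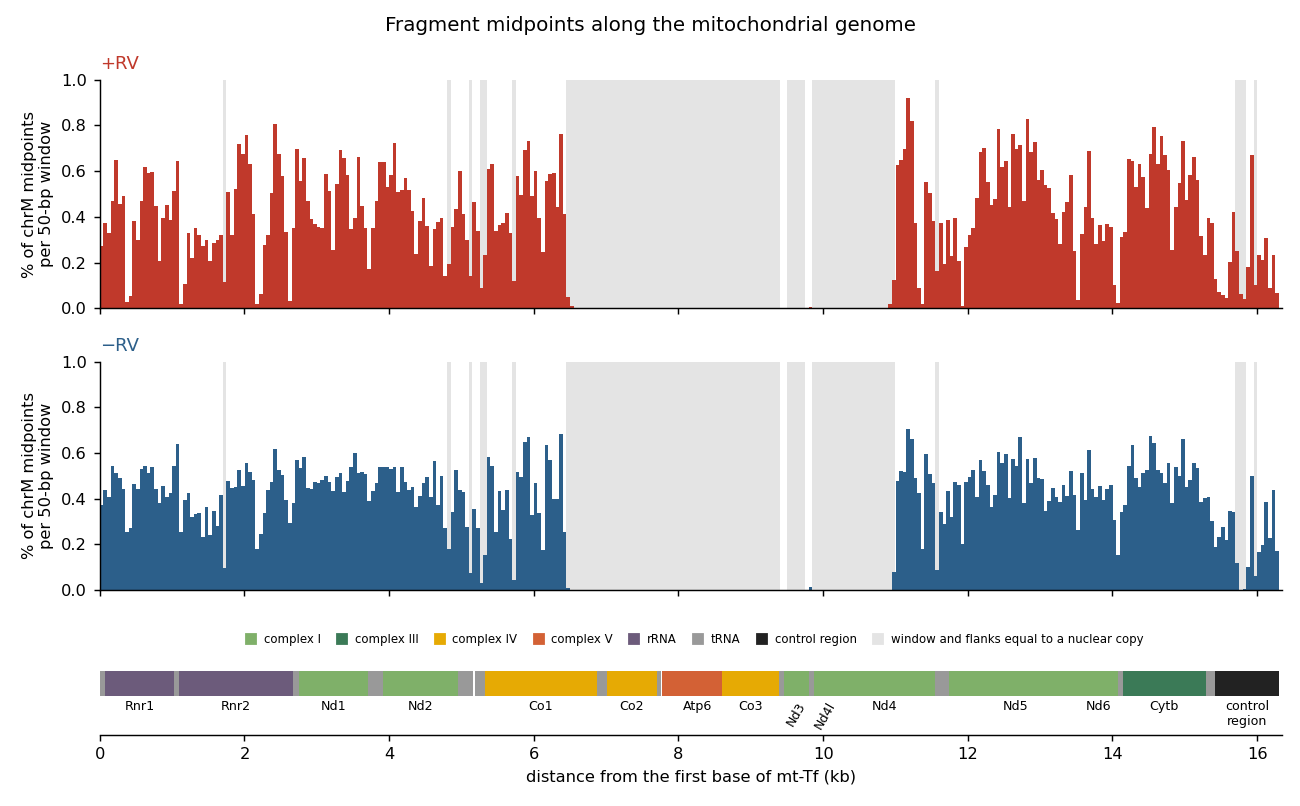
Percent of chrM fragment midpoints in each 50-bp window (bars) against the distance in kb from the first base of mt-Tf, for +RV above and −RV below, with the genes coloured by complex and windows identical to a nuclear copy in grey. A gap from the middle of mt-Co1 to mt-Nd4 is nearly empty in both sets, and the +RV profile has deeper notches than the −RV profile elsewhere.

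The gap coincided with a nuclear copy on chromosome 1, chr1:24611535-24616188, that matches chrM:6390-11042 at 99.9% identity. That stretch is 28.5% of chrM, and the copy differs from it in 3 places. Of the 92 windows wholly inside it, 80 in +RV and 83 in −RV held no midpoint. The genes that lie fully in this stretch had almost no fragments, which cannot be told apart from fragments that were not assigned. Among complex IV genes, mt-Co2 had 0 midpoints in both sets and mt-Co3 had 1 in +RV and 0 in −RV. For the ATP synthase subunits, mt-Atp6 had 0 midpoints in +RV and 2 in −RV and mt-Atp8 had 0 and 5. Of the complex I subunits, mt-Nd3 had 10 midpoints in +RV and 5 in −RV, and mt-Nd4l had 5 and 0.

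Fragments placed on the nuclear copy itself lay almost wholly where it differs from chrM. Of the 7997 +RV fragments inside the copy, 7995 (99.97%) covered a differing place, and of 1698 −RV fragments 1697 (99.94%) did. The first difference, A6393T (the chrM base, the chrM position and the base of the copy), lies in mt-Co1 close to the end of the copy. There all fragments were on chrM, 14124 in +RV and 1209 in −RV, and none covered it on the copy.

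The second difference, T9461C, lies in mt-Nd3, and RefSeq annotates this position as c in other inbred strains. Here the fragments were on the nuclear side: 4540 on the copy and 1 on chrM in +RV (99.98%), and 855 on the copy and 1 on chrM in −RV (99.88%). The third is 1 more A in the copy's run of 9, against 8 in chrM, in mt-Tr (the arginine tRNA) within a stretch that RefSeq annotates as polymorphic. Of the fragments over it, 3455 in +RV (97.5%, 95% interval 97.0 to 98.0%) and 842 in −RV (97.5%, 96.2 to 98.4%) were on the copy. The other 87 and 22 were on chrM. The number over T9461C on the copy was 54.2% of the median depth of chrM outside nuclear copies in +RV (8382 fragments) and 85.5% of that in −RV (1000 fragments). The deposited fragments hold no bases, so which base or run length these molecules carried was not tested.

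At a minimum of 95% identity over 100 bp, 8 nuclear stretches aligned to chrM and together covered 52.1% of chrM. Windows overlapping them held 0.48 times as many midpoints per base as the other windows in +RV and 0.41 times in −RV. Counts went with the number of differences from the nearest copy within a window and 25 bp on each side. The 98 inner windows with none had a median of 0 midpoints in both sets. The 32 windows with 1 or 2 differences had a median of 3893 in +RV and 466.5 in −RV, and the 37 with 3 to 5 had 4487 and 610. The 101 windows with 10 or more differences had 4544 and 619, so windows with 3 to 5 differences had medians near these. In the 98 windows without a difference, the midpoints of both sets pooled over windows gave a +RV over −RV ratio of 1.82 (1.72 to 1.93).

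**Figure D2:**
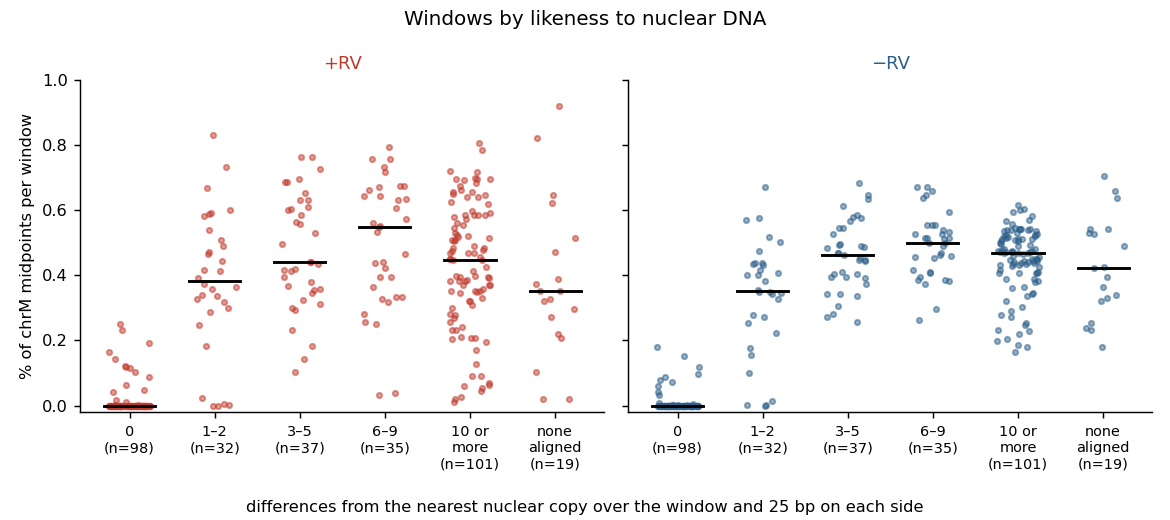
Percent of chrM midpoints per 50-bp window (points) by the number of differences between the window with 25 bp on each side and its nearest nuclear copy, +RV left and −RV right, with medians as black lines. Most windows without a difference sit at 0, with a +RV maximum of 0.249%, and windows with 1 or 2 differences reach most of the range.

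The second question was which windows differed between the conditions. Of 239 windows with at least 100 midpoints in both sets together, 17 (7.11%) held a share at least 1.5-fold higher in +RV and 35 (14.6%) a share at least 1.5-fold lower. With +RV thinned to the depth of −RV, which weighs both sets alike in the minimum, the counts were 13 and 38 of 234. Of the 17 higher windows, 16 overlapped a nuclear copy and 13 were identical to one over the window and its flanks. Only 15 of the 98 inner windows identical to a copy held enough midpoints to be compared. Some of the 13 reached the minimum only through the deeper +RV set, as given below, so their direction was fixed by it. The counts after thinning were not split by overlap. Of the 35 lower windows, 33 had a GC content under 35%, 4 overlapped a copy and 2 were at the ends of the map. For comparison, 187 compared windows were past neither limit. Of these, 66 overlapped a copy, 2 were identical to one over the window and its flanks, and 58 had a GC content under 35%. The single higher window outside copies was chrM:3351-3400 in mt-Nd1, with 6668 midpoints in +RV and 570 in −RV at 40% GC.

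The highest ratios were in windows without any difference from nuclear DNA. In the control region, chrM:15751-15800 held 637 midpoints in +RV and 2 in −RV, with a ratio of 41.5 (11.4 to 343). Its neighbour chrM:15801-15850 held 434 and 6, a ratio of 9.42 (4.29 to 25.8). Both lie in a copy on chromosome 12, chr12:97061428-97061792, at 99.7% identity. In mt-Co1, the catalytic subunit of complex IV, chrM:6451-6500 held 501 midpoints in +RV and 10 in −RV, with a ratio of 6.52 (3.52 to 13.7). It is the last window before the gap with midpoints in both sets. With 2, 6 and 10 midpoints in −RV, these windows reached the minimum of 100 midpoints through the deeper +RV set. That their share was higher in +RV was thus fixed by the minimum, though not how much higher.

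In mt-Co1 as well, chrM:5701-5750 held 1219 and 57, a ratio of 2.78 (2.13 to 3.70). The window chrM:5251-5300 over mt-Tc and mt-Ty held 906 and 44, a ratio of 2.68 (1.98 to 3.72). These last 2 lie in a copy on chromosome 2, chr2:22587288-22590534, at 97.4% identity. At the rims of the gap, chrM:6501-6550 in mt-Co1 held 130 midpoints in +RV and 0 in −RV, and chrM:10901-10950 in mt-Nd4 held 179 and 0. With 3 counts in place of 0 their ratios would be 5.64 and 7.77, and the exact lower limits are 4.52 and 6.25. Both reached the minimum of 100 midpoints through the deeper +RV set alone, so that a higher share there was fixed by the minimum. A window below it, chrM:9801-9850 over mt-Nd3 and mt-Tr, held 56 and 18, which is a ratio of 0.41 (0.23 to 0.73).

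Fragments in these windows were long. Their median was 239 bp for +RV and 172 bp for −RV in chrM:15751-15800, 222 and 153 bp in chrM:6451-6500, and 150 and 135 bp in chrM:5701-5750. Over all chrM fragments the medians were 82 bp for +RV and 75 bp for −RV, and the longest fragments 442 and 216 bp. The +RV medians of chrM:15751-15800 and chrM:6451-6500 thus lay above the longest −RV fragment. When only fragments from 76 bp to under 148 bp were counted, 1 window in place of 17 was at least 1.5-fold higher in +RV, and 26 in place of 35 were lower, of 234 compared. Most of the higher windows were thus past 1.5-fold only with fragments outside this length range counted.

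The lowest ratios were in windows rich in A and T. In chrM:11901-11950 of mt-Nd5 there were 112 midpoints in +RV and 269 in −RV, although the +RV set was the deeper one. Its share was 0.0110% of +RV and 0.203% of −RV midpoints, a ratio of 0.054 (0.043 to 0.068). In chrM:1101-1150, just inside mt-Rnr2, the large ribosomal RNA, there were 215 and 337 midpoints, a ratio of 0.083 (0.070 to 0.099). The ratios of chrM:2601-2650 (323 and 391 midpoints) and chrM:351-400 (277 and 334) were both near 0.108.

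In chrM:2151-2200 there were 215 and 238 midpoints, a ratio of 0.118 (0.097 to 0.142). Thus 4 of these 5 windows lay in the ribosomal RNA genes, as did 53 of the 239 compared windows (22.2%) and 8 of the 35 lower ones (22.9%). The 5 had a GC content of 22 to 30% and a longest run of A and T of 13 to 16 bases within the window and its flanks. A run of at least 13 bases was found in 46 of the 322 full inner windows. Of the 29 compared windows with such a run, 10 had a share at least 1.5-fold lower in +RV (34.5%, against 14.6% of all compared windows), so most windows with one did not pass.

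The relation to GC content was read across the 149 full inner windows outside nuclear copies. Their median log2 ratio of +RV over −RV share was −2.24 below 25% GC (9 windows), −0.61 at 25 to 30% (22 windows) and −0.32 at 30 to 35% (34 windows). It was 0.04 at 35 to 40% (22 windows), 0.20 at 40 to 45% (46 windows) and 0.33 at 45% and above (16 windows). The count of windows at least 1.5-fold lower in +RV was 7 of 9, 11 of 22, 10 of 34, 1 of 22, 0 of 46 and 0 of 16 in the same order. Across these windows GC content and the log2 ratio had a Pearson r of 0.66 and a Spearman rho of 0.75. This describes windows that share 1 library pool per condition and are not independent replicates.

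Shares themselves went with GC in both sets, with r = 0.74 in +RV and r = 0.52 in −RV. The shares of both sets over these windows had r = 0.85. The −RV profile was therefore the flatter one: without windows overlapping a copy the coefficient of variation was 0.48 in +RV and 0.25 in −RV.

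**Figure D3:**
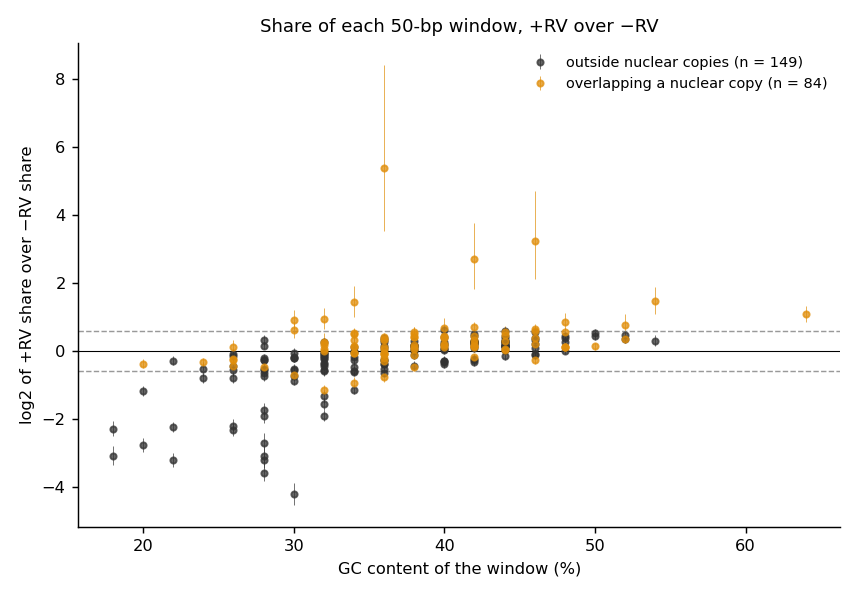
Log2 ratio of +RV over −RV share against GC content for each full inner 50-bp window with at least 100 midpoints in both sets together (points, exact 95% counting intervals as bars), with 1.5-fold as dashed lines. Windows outside nuclear copies (black) fall below 0 at low GC, down to −4.21, and the highest values, up to 5.37, belong to windows in copies (orange).

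Nuclear fragments were read in the same way. Fragments with under 25% GC made up 0.164% of +RV and 1.66% of −RV chrM fragments, a log2 ratio of −3.34. In nuclear fragments they made up 0.179% of +RV and 2.46% of −RV, a log2 ratio of −3.78. At 25 to 30% GC the log2 ratio was −1.51 on chrM and −1.80 in the nucleus, and at 40 to 45% it was 0.32 and 0.14. Fragments were also compared within length classes, to limit the part that length plays. In fragments of 76 to 100 bp the log2 ratio below 25% GC was −2.79 on chrM and −2.96 in the nucleus, and at 25 to 30% it was −1.10 and −1.13. A lower share of A/T-rich fragments in +RV was thus measured in both compartments.

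Other length classes had lower values below 25% GC, with −3.74 on chrM and −4.12 in the nucleus at 51 to 74 bp. At 148 bp or longer it was −3.12 on chrM, from 16 fragments in +RV and 8 in −RV, and −5.04 in the nucleus. At 25 to 30% GC these long fragments had −2.13 on chrM and −2.20 in the nucleus, near the −2.08 and −2.32 at 51 to 74 bp, so the values were nearest to 0 at the middle lengths. In windows outside copies, those under 30% GC held 4.70% of +RV and 12.6% of −RV midpoints of fragments up to 74 bp. For fragments from 76 bp to under 148 bp the shares were 12.8% and 19.1%. The 20 Tn5 indices mark separate tagmentations that were mixed for barcoding, so they are no replicates of reverse crosslinking. All 20 occurred in both sets. Among them the share of midpoints in these low-GC windows ran from 9.76 to 10.7% in +RV and from 15.3 to 17.1% in −RV. The ranges did not overlap. The share in windows overlapping a copy ran from 34.7 to 36.0% in +RV and from 30.9 to 32.8% in −RV, also without overlap. Matched by index, the share in low-GC windows was lower in +RV in 20 of 20, with differences of −7.03 to −5.39 percentage points.

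**Figure D4:**
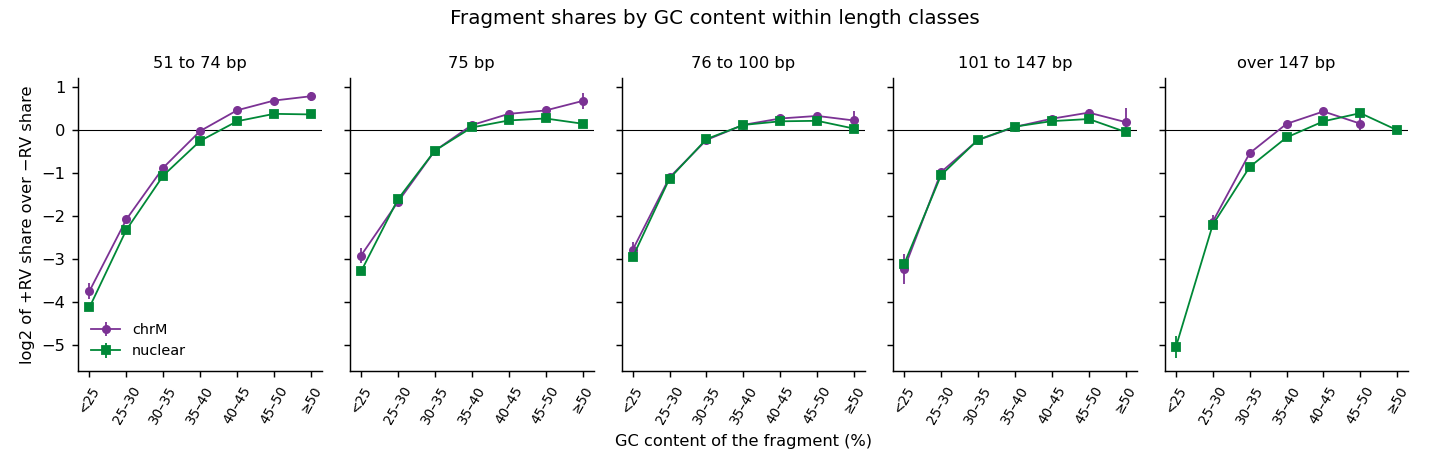
Log2 ratio of +RV over −RV share of fragments by GC content of the fragment, in 5 length classes, for chrM (purple circles) and nuclear fragments (green squares), with exact 95% counting intervals. In each class the ratio is lowest in the lowest GC class shown, and at 76 to 100 bp both compartments start near one point, −2.79 on chrM and −2.96 in the nucleus.

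By gene, levels are given as midpoints per base per 1000000 chrM midpoints, where an even spread is 61.4 in either set. Among complex I genes outside the long copy, mt-Nd1 had 96.3 in +RV and 98.8 in −RV, and all of mt-Nd1 is outside copies. The density of mt-Nd5 was 97.0 in +RV and 92.3 in −RV, but 78.9 and 87.7 over the part outside copies, since 52.4% of it lies in one. The values of mt-Nd2 were 84.2 and 89.4 with 49.2% of the gene in a copy, and 101 and 94.95 outside. For both genes the condition with the higher density thus differed between the whole gene and the part outside copies. The lightly covered mt-Nd4, with 65.8% of its length in a copy, had 41.7 and 40.6, but 103 and 102 over the part outside. The gene on the opposite strand, mt-Nd6, had 69.9 in +RV and 87.5 in −RV, with a ratio of 0.80 (0.78 to 0.82) that was the lowest of the complex I genes outside the long copy.

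The highest density of a protein gene was in mt-Cytb, 111 in +RV and 103 in −RV, with a ratio of 1.08 (1.06 to 1.10). In complex IV the midpoints of mt-Co1 lay before the gap and gave 71.1 in +RV and 62.0 in −RV. Both rRNA genes were lower in +RV. The small ribosomal RNA, mt-Rnr1, had 82.1 and 90.6, a ratio of 0.91 (0.89 to 0.92). The values of mt-Rnr2 were 71.8 and 76.4, a ratio of 0.94 (0.92 to 0.96). These differences are small beside those of the A/T-rich windows inside the same genes.

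Set against the 13 protein-coding genes, the rRNA genes had 1.25 times the density per base in +RV (1.24 to 1.26) and 1.38 times in −RV (1.37 to 1.40). That direction depended on windows with a nuclear copy. Without windows overlapping a nuclear copy the values were 0.82 in +RV and 0.87 in −RV, so that the rRNA genes were then below the protein-coding genes. The 13 protein-coding genes include those of the gap, whose near lack of midpoints cannot be told apart from fragments that were not assigned.

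Of the 22 tRNA genes, mt-Tl1 (136 in +RV and 116 in −RV), mt-Tm (127 and 102) and mt-Tv (127 and 120) had the highest +RV densities. They carry leucine, methionine and valine. At the low end 4 tRNA genes had no midpoint in either set, mt-Ts1, mt-Td, mt-Tk and mt-Tg, and all 4 lie in the long copy. The 32 bases of the light-strand origin, chrM:5160-5191, had 103 in +RV and 80.3 in −RV. They lie in a nuclear copy too. Single tRNA genes chosen after their values were seen followed both patterns: mt-Ti at 27.5% GC and outside copies had 2838 midpoints in +RV and 767 in −RV (ratio 0.48, 0.44 to 0.52). In contrast mt-Ty, which lies in the copy on chromosome 2, had 1363 and 73 (ratio 2.43, 1.92 to 3.12).

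The control region, chrM:15423-16299 by RefSeq, had 37.4 in +RV and 44.1 in −RV, which was 0.60 (0.59 to 0.60) and 0.71 (0.69 to 0.73) times the density of the rest of chrM. Matched by Tn5 index, it was lower in +RV in 20 of 20, although the ranges overlapped (0.552 to 0.633 in +RV and 0.625 to 0.792 in −RV). It was below the rest under each alternative tried, most so without windows overlapping a copy, with 0.30 in +RV and 0.57 in −RV. Its windows differed among themselves in both of the ways seen along chrM. The first A/T-rich part holds the extended termination associated sequences, where the newly made strand of the D-loop ends. ETAS1 had 14.2 in +RV and 44.3 in −RV, with a ratio of 0.32 (0.28 to 0.36). ETAS2, at 22.7% GC, had 9.76 and 57.4, a ratio of 0.17 (0.15 to 0.20).

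Next to it lay the windows identical to the copy on chromosome 12, with the high ratios given above. The highest window of the region, chrM:15901-15950, held 6792 midpoints in +RV and 663 in −RV. It also lies in the copy on chromosome 12 and was left out of the values without windows overlapping a copy. The conserved sequence blocks near the heavy-strand origin differed less. CSB1 had 42.9 in +RV and 34.7 in −RV, with a ratio of 1.24 (1.02 to 1.52). At 25% GC it was thus not lower in +RV, and 20.8% of it lies in a copy. The ratio of CSB2 was 0.94 (0.76 to 1.18) and that of CSB3 0.96 (0.82 to 1.12), and both intervals include 1.

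The circle was mapped as a line, and its 4 end windows are affected by the join. Starts at the first base numbered 3037 in +RV and 417 in −RV, and ends at the last base 1085 and 203. The first windows, chrM:1-50 and chrM:51-100, held 2774 and 3772 midpoints in +RV, against 494 and 580 in −RV. The last windows, chrM:16201-16250 and chrM:16251-16299, held 2354 and 680 in +RV, against 577 and 225 in −RV. Leaving these 4 windows out gave control region values of 0.61 in +RV and 0.67 in −RV.

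Fragment ends were also read base by base over 7247 positions outside copies and away from the map ends. Tn5 cuts both strands 9 bp apart and duplicates the bases between, so fragments on both sides of an insertion overlap. The starts and ends per position correlated most at a shift of 9 bp, with r = 0.64 in +RV and 0.78 in −RV, against medians of 0.035 and 0.0037 over the shifts tried. The deposited ends were thus not moved to the centre of the insertion.

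The site with most +RV ends was chrM:11139-11147 in mt-Nd4, with 2743 ends in +RV and 298 in −RV. The second, chrM:2743-2751 in mt-Tl1, had 2138 and 260. In −RV the highest site was chrM:3483-3491 in mt-Nd1, with 2047 ends in +RV and 337 in −RV, a share 0.82 times as large in +RV (0.73 to 0.93). The 100 highest sites of each set held 9.77% of +RV and 9.38% of −RV ends, on 1.38% of the positions. Of these 100 sites, 75 were among the highest in both sets, which is 75% of either list. The first base inside a fragment was G in 28.7% of +RV and 28.2% of −RV ends, and the ninth was C in 26.2% and 26.3%, where each made up 18.2% of these positions on both strands.

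The lengths of chrM fragments answered how mitochondrial differed from nuclear DNA. Fragments of 148 bp or longer, which exceed the DNA of a nucleosome core, were 13.8% (13.8 to 13.9%) of chrM fragments in +RV and 6.11% (5.98 to 6.24%) in −RV. In nuclear fragments they were 20.4% in +RV and 2.29% in −RV. So chrM had the smaller share of long fragments in +RV and the larger share in −RV. The direction in +RV turned when each start and end position was counted once, with 26.1% on chrM and 20.5% in nuclear fragments. In −RV it did not, with 8.50% and 2.30%. Counting once kept 399319 of 1015638 +RV fragments on chrM but 13401021 of 13703580 nuclear ones, so it did not treat both compartments alike. At the short end, fragments under 50 bp were 2.29% of chrM fragments in +RV and 13.9% in −RV, against 5.43% and 26.9% of nuclear fragments. Across the 20 Tn5 indices the share of these long fragments on chrM ran from 12.9 to 16.1% in +RV and from 5.12 to 9.63% in −RV, without overlap.

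The counts at 75 bp, 21.6% of chrM fragments in +RV and 20.4% in −RV, sit at the length to which read 1 was cut. Lengths from 76 bp to under 148 bp were then examined for a repeat of about 10 bp. What gives such a repeat was not tested. After removal of the trend, nuclear fragments had a 10-bp amplitude of 0.056 (log2) in +RV and 0.061 in −RV, which was the largest of the periods from 6 to 16 bp. For chrM it was 0.018 in +RV and 0.0099 in −RV, beside a median of 0.013 and 0.014 over the other periods, and the largest amplitudes were at 15 bp in +RV and 8 bp in −RV. Counting error per length on chrM was 0.019 (log2) in +RV and 0.059 in −RV.

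**Figure D5:**
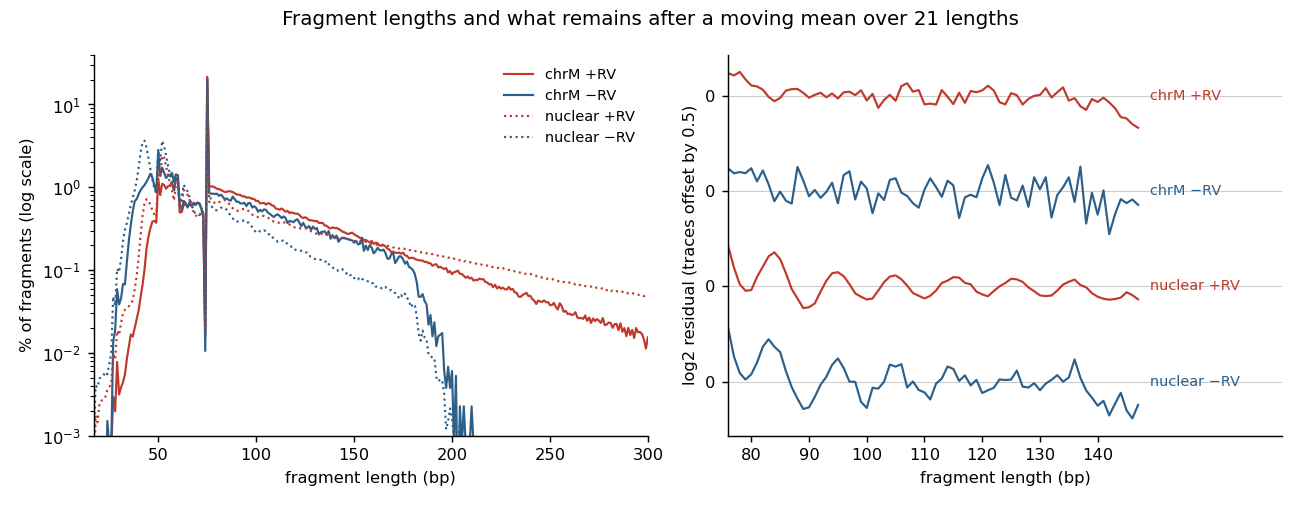
Left, percent of fragments at each length (log axis) for chrM (solid) and nuclear fragments (dotted), with +RV in red and −RV in blue; right, the log2 residual from 76 bp to under 148 bp after a moving mean over 21 lengths, with traces offset by 0.5. Peaks spaced by about 10 bp are seen in both nuclear traces and in neither chrM trace, and the spikes at 50 and 75 bp on the left match the lengths to which reads were cut.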

How the data were processed

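For single cells the authors deposited coordinates, with a barcode per fragment (other values: no count or normalization), on mm10 and pooled over both libraries of a condition. The study's methods name BWA for these, with reads cut to 75 and 50 bp. The sets' names state a selection of barcodes at 500 unique fragments and at 15 for FRiT, the fraction of reads near transcription start sites. Bowtie2 2.4, SAMtools 1.15, Picard 1.119 and SEACR 1.3 also stand in the submitters' processing notes, without roles. The treatment of reads with several equal matches was not found in labels or methods. The condition of each set was read from its abbreviation.

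The GRCm38.p6 chrM has the length of the mm10 one. Genes were from GENCODE vM21 and the control region from RefSeq. Nuclear copies were found with BLAST 2.17.0 (word size 11) at 95% identity over at least 100 bp. Fragments were counted by midpoint with Python 3.11.15, NumPy 2.4.6 and pandas 2.3.3, intervals used SciPy 1.17.1, and the counting was tested on simulated data. Windows were compared at 100 midpoints in both sets together.

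Windows named are the 5 highest and lowest by +RV share and by ratio, outside the 2 windows at each map end, these 4, windows with none in −RV, all protein-coding and rRNA genes, and the 3 highest and lowest tRNA genes with ties. Genes, lists and windows were chosen with earlier results of these data known. Both fragment ends, other windows, folds, depths, barcodes and lengths were tried as alternatives. Of the windows highest by +RV share, 1 is not reported here.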

Additional observations from a re-analysis of the deposited data

How the results depend on the processing

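No paired analysis was possible because both libraries of a condition were pooled before deposit, so that replicate numbers are lost. The sets could be matched by Tn5 index only, which kept the direction in 20 of 20 indices for the control region, low-GC windows, windows in copies and long fragments. Lower and higher here refer to +RV over −RV. For the control region over the rest of chrM, values stand for +RV first. Counting both ends gave 0.617 in +RV, dropping repeated lines gave 0.589, and leaving out lengths of 50 and 75 bp gave 0.617. Counting each position once gave 0.711 and 0.738, barcodes with at least 1000 fragments 0.604 and 0.753, lengths from 76 bp to under 148 bp 0.683 and 0.782, no end windows 0.611 and 0.674, and no windows overlapping a copy 0.295 and 0.570. Without windows with fewer than 3 differences from a copy, an alternative chosen after seeing the data, it was 0.374 and 0.577.

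The rRNA genes over protein-coding genes gave 1.29 in +RV and 1.41 in −RV with both ends counted. They turned to 0.821 and 0.874 without windows overlapping a copy and to 0.788 and 0.855 without windows of fewer than 3 differences. These settings leave out the protein-coding genes in the gap and other windows besides, and the cause of the turn was not tested. The number of windows past the fold was 5 higher and 18 lower with windows of 100 bp, and 8 higher and 21 lower at 2-fold. With lengths from 76 bp to under 148 bp 1 window was higher. The coefficient of variation was 0.788 in +RV at 100 bp and 0.763 with each position once. It was 0.483 in +RV and 0.246 in −RV without windows overlapping a copy, and 0.449 and 0.244 without those of fewer than 3 differences. The share of 148 bp or longer in +RV was 13.1% without repeated lines, 26.1% with each position once, 14.6% in barcodes with at least 1000 fragments and 18.0% without lengths of 50 and 75 bp. In −RV it was 8.50% with each position once and 7.95% without these lengths. Windows overlapping a copy were at 0.476 times the other windows in +RV with both ends counted. The cause of the other shifts was not tested either. Thinning +RV to the chrM depth of −RV gave 13 higher and 38 lower windows and a coefficient of variation of 0.831. Of 65 values under an alternative, 26 stayed within their limits, 35 moved and 4 reversed.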

Other observations

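Nuclear places other than the long copy on chromosome 1 drew few fragments. The copy chr2:22587288-22590534 held 552 fragments in +RV and 56 in −RV over 3260 aligned columns, and chr12:97061428-97061792 held 40 and 0. The fully identical stretch chr2:69355538-69355666, which matches chrM:11514-11642, held none in either set. In +RV 57 and in −RV 34 fragments ended past the last base of chrM, up to 16320 and 16316. Lines that repeated the position and barcode of another made up 1.30% of +RV and 0.355% of −RV chrM fragments.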
